A study of Mus musculus with 12 samples.

Results

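Mos, Map2k1, Map2k2, Mapk3, Rps6ka1, Rps6ka2 and Rps6ka3 are genes of the MAP kinase cascade of the maturing oocyte. They were taken by symbol from the deposited expression table, and all 7 were found among its 23235 genes. Polysome-bound RNA, the RNA that is carrying ribosomes, was sequenced from oocytes of C57BL/6 mice at postnatal day 21. Wild-type (WT) mice were set against mice without Cnot6l (Cnot6l-/-, KO), the gene of a deadenylase subunit of the CCR4-NOT complex that shortens poly(A) tails. GV oocytes, which still hold a germinal vesicle, were taken 48 h after the hormone PMSG. MI and MII oocytes (first and second meiotic metaphase) were cultured for 8 h and 16 h. Each of the 6 groups had 2 libraries, 12 in all. The labels name neither the deleted part of Cnot6l nor how many oocytes or mice entered a library. The protocol mentions the MEK inhibitor U0126 for some experiments, and no sample label here names it.

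Mos is an oocyte kinase made from stored mRNA once meiosis resumes. It phosphorylates the kinases MEK1 and MEK2 (Map2k1 and Map2k2), which activate ERK kinases such as ERK1 (Mapk3). The ERKs in turn activate the p90 ribosomal S6 kinases (Rps6ka1, Rps6ka2 and Rps6ka3). In oocytes the cascade is known for its part in building the meiotic spindle and in holding the egg at MII until fertilization.

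Values are FPKM as deposited by the authors, a measure of fragments per kilobase of transcript scaled to library size. The sources used here do not state how that scaling was done. Of the 7 genes, 6 had a mean of at least 1 FPKM over all libraries and were tested, and Rps6ka2 did not. Changes are differences of log2(FPKM + 1), which understate the change of genes near 0, and are called at a limma adjusted p below 0.05 over all 11667 genes tested. The deposited FPKM do not sum to 1 total: totals ran from 884142 in a WT MII library to 1663871 in a KO MI library. Genes above 0 numbered 9064 to 13319 per library, with 10487 and 10578 in WT MI against 13277 and 13319 in KO MI. The median of all tested genes moved with the groups. The KO minus WT median was near 0 at GV (-0.06) and stood at 1.03 for MI and 0.81 for MII. The MI minus GV median was -0.87 in WT and 0.26 in KO, and that of MII minus MI was -0.27 and -0.59. Each change is therefore given on the deposited scale and, where called relative, with that median taken off. Which of these scales holds the true level was not tested, since the sources used here name no external standard. A second scaling, called median scaling, divides each library by its median ratio to the mean of all 12 libraries. That median is taken only over genes with a mean of at least 10 FPKM. Only polysome-bound RNA was measured, so the amount of a transcript and the part of it on polysomes cannot be told apart. Fewer oocytes and less RNA per oocyte cannot be told apart either. The labels do not say that replicates came from separate animals, so p-values measure the spread between these libraries, which may be technical.

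Cnot6l itself stood at 38.7 and 16.1 FPKM in WT GV against 6.28 and 21.6 in KO GV, so the groups overlapped at that stage. The MI libraries held 68.5 and 47.9 in WT against 23.5 and 16.5 in KO, and the MII libraries 65.2 and 49.4 against 16.4 and 16.0, without overlap. All 12 oocyte markers were above 0 in every library. Of 14 cumulus and granulosa markers, Foxl2, Lhcgr and Areg were at 0 in every library, and 11 were above 0 in at least 1. Their summed FPKM at GV was 277 and 304 in WT against 142 and 200 in KO. The MI libraries held 109 and 131 against 151 and 132, and the MII libraries 64.7 and 54.0 against 80.6 and 121. Among 10 markers of theca, stroma, endothelium and blood, 5 were above 0 in any library, and their sum was 25.2 to 77.8 FPKM.

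Mos, Map2k1 and Mapk3 rose from GV to MI in both genotypes, and Map2k2 fell in WT. From GV to MI in WT, 4 of the 6 tested genes were called, 3 higher and 1 lower, where 24.8% of all tested genes were called (3.06% higher and 21.7% lower). In KO the same step had 3 of 6 called, all higher, against 10.2% of all genes (8.89% higher). For MI to MII 1 of 6 was called in each genotype, Mapk3, which fell, against 22.1% of all genes in WT (16.4% lower) and 7.35% in KO (7.18% lower). Between genotypes 0 of 6 were called at GV, where 1.56% of all genes were called by limma and 1 of the 6, Mapk3, had an unadjusted p below 0.05 (0.00948). At MI 2 of 6 were called higher in KO, Map2k1 and Map2k2, against 28.4% of all genes (27.9% higher), so the share was near the background. At MII 1 of 6 was called higher in KO, Map2k2, against 28.6% of all genes (25.4% higher), a share below the background. With median scaling 2 of 6 were called at MI, both lower in KO, against 4.73% of all genes (2.85% lower). The MII count was then 4 of 6, all lower, against 24.8% (10.5% lower). In the tests of whether a stage change differed between genotypes, 0 of the 6 were called from GV to MI, against 14.7% of all genes, and 0 from MI to MII, against 6.52%. With median scaling 1 of 6, Mos, was called from GV to MI, against 1.56% of all genes. At an unadjusted p below 0.05 limma had Map2k1 (0.0479) and Map2k2 (0.0402) in the first and Map2k1 (0.0067) and Rps6ka1 (0.00546) in the second.

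**Figure D1:**
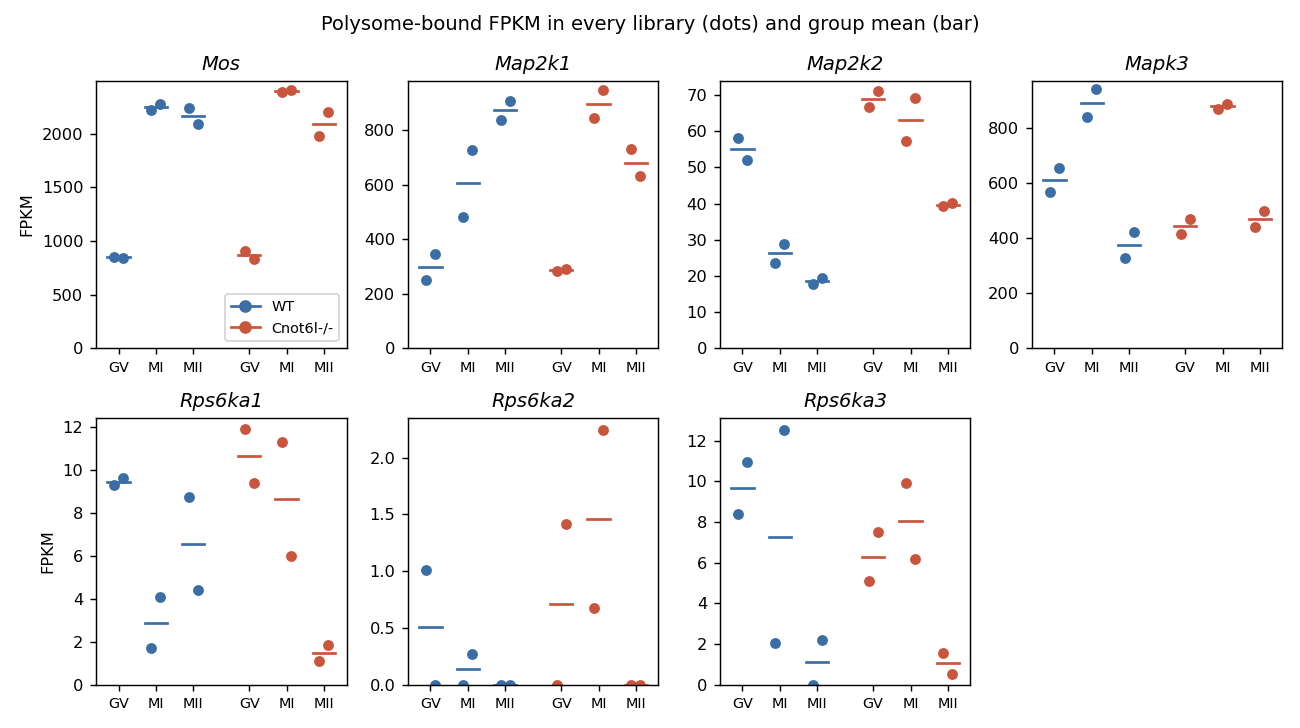
FPKM (linear axis from 0, a different range in each panel) of the 7 genes in each of the 12 libraries, by stage and genotype (WT blue, Cnot6l-/- red). Dots are libraries and bars are the means of 2. Mos lies between 831 and 908 FPKM at GV and between 1977 and 2413 at MI and MII in both genotypes, while Map2k2 is lower in WT than in KO at MI and MII.

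Mos was the most abundant of the 7 transcripts in every library. The gene lies on the minus strand of chromosome 4, at 3797804 to 3799252 of mouse build mm9, and its annotated transcript is 1 exon of 1449 bases. At GV it stood at 854 and 845 FPKM in WT and at 908 and 831 in KO. The MI libraries held 2219 and 2281 in WT against 2391 and 2413 in KO, and the MII libraries 2238 and 2088 against 1977 and 2205. All 4 GV libraries were thus below all 8 later ones, and the genotypes overlapped at GV and at MII. At MI both KO libraries were above both WT libraries.

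Between GV and MI Mos rose 2.65-fold in WT (log2 1.40, SE 0.0771, limma adjusted p = 1.83e-06, 2.27 relative) and 2.76-fold in KO (log2 1.47, adjusted p = 5.37e-07, 1.21 relative). Both calls held in all 19 alternatives tried, with log2 changes of 1.38 to 2.24 in WT and 0.84 to 1.53 in KO. Between MI and MII the deposited values moved by -0.06 in WT (95% interval -0.23 to 0.11) and -0.20 in KO (-0.37 to -0.03, adjusted p = 0.16). After median scaling the same step was a called rise of 0.32 in WT (adjusted p = 0.0192) and of 0.43 in KO (adjusted p = 0.0326).

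The comparison of genotypes for Mos rests on the scale. As deposited, KO minus WT was 0.03 at GV (95% interval -0.14 to 0.20), 0.09 at MI (-0.08 to 0.27) and -0.05 at MII (-0.22 to 0.12), with none called. With median scaling Mos was lower in KO, with a difference of -0.93 at MI (adjusted p = 0.00014) and one of -0.82 at MII (adjusted p = 8.14e-05). The GV difference was 0.13 (adjusted p = 0.773). With every library brought to the same total it was -0.55 at MI (adjusted p = 0.0026) and, among the MII libraries, -0.50 (adjusted p = 0.000963). The difference between the genotypes' GV to MI steps was 0.06 as deposited (95% interval -0.18 to 0.30). It turned to a smaller rise in KO with equal totals (-0.83, adjusted p = 0.00289), median scaling (-1.06, 0.00121) and quantile normalization (-0.62, 0.0344). The rank of Mos within its own library does not change with the library's scale, but it moves when other genes do. It therefore does not tell which scale holds the true level. Counted from the most abundant gene, it was 245 and 245 in WT GV and 171 and 210 in KO GV. Among MI libraries the ranks were 68 and 68 in WT against 91 and 93 in KO, and among MII libraries 52 and 54 against 77 and 69. By rank, then, Mos stood higher in KO than in WT at GV and lower in KO at MI and MII, with no overlap of the 2 libraries of each group. With 2 libraries against 2, an exact permutation test cannot give a two-sided p below 0.333.

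**Figure D2:**
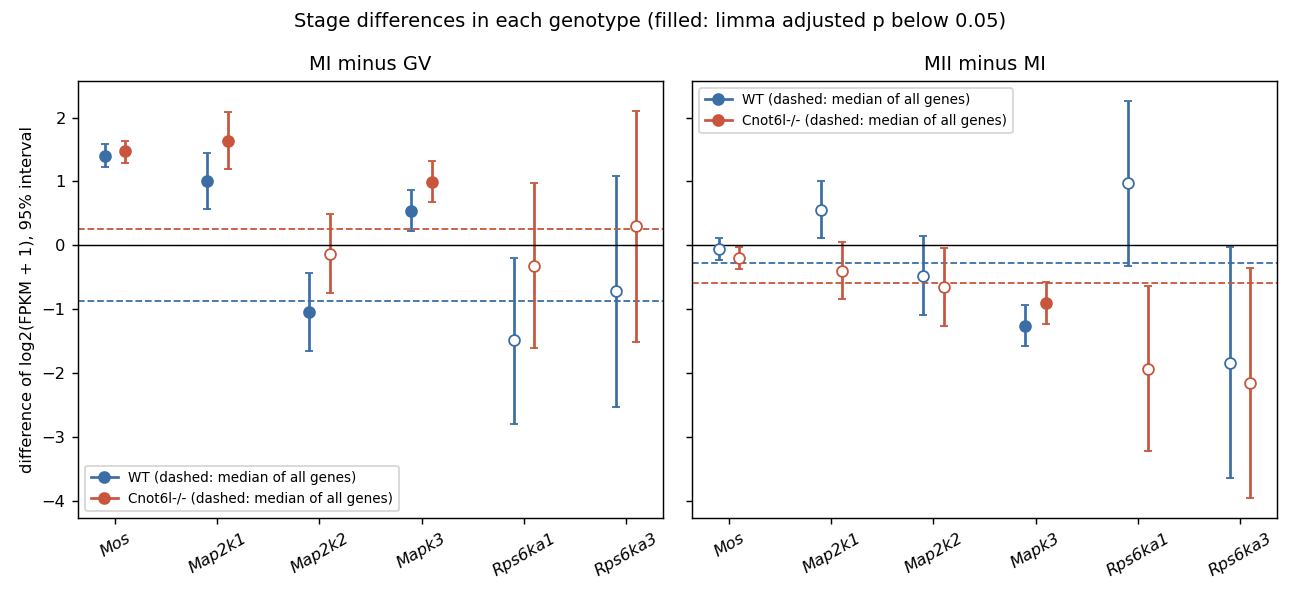
Differences of log2(FPKM + 1) between stages for 6 of the 7 genes in WT (blue) and Cnot6l-/- (red), with 95% intervals. Filled dots are called by limma, and the dashed lines are the median of all tested genes in that genotype. From GV to MI, Mos and Map2k1 lie above 1.0 in both genotypes, while the median gene is at -0.87 in WT and 0.26 in KO.

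Of the MEK genes, Map2k1 was the more abundant in every library. It lies on the minus strand of chromosome 9 (64033599 to 64101412). At GV its FPKM was 252 and 344 in WT and 284 and 289 in KO. At MI these values were 482 and 729 in WT against 847 and 946 in KO, and at MII 838 and 909 against 731 and 632. KO MI was above WT MI, and KO MII was below WT MII, without overlap.

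Map2k1 rose 2.01-fold from GV to MI in WT (log2 1.01, SE 0.199, limma adjusted p = 0.00513) and 3.12-fold in KO (log2 1.64, adjusted p = 0.000374). The WT call was lost without WT GV replicate 1 (log2 0.78) and with the compared groups alone (limma adjusted p = 0.0927). The KO call held in all 19 alternatives. Between MI and MII it stood 0.56 higher in WT (adjusted p = 0.0733) and 0.40 lower in KO (adjusted p = 0.289). The WT step was called without WT MI replicate 2 (adjusted p = 0.017), whose 729 FPKM is the higher of that pair. The 2 genotypes' steps differed by -0.95 (95% interval -1.58 to -0.33), which did not pass (adjusted p = 0.0767) but did without WT MI replicate 2 (adjusted p = 0.0242). Without the same library the difference of the GV to MI steps passed too (adjusted p = 0.0416, against 0.154 with all libraries).

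At MI Map2k1 was higher in KO by 0.59 (95% interval 0.15 to 1.04, adjusted p = 0.0482), at the edge of the threshold. The call was lost without WT MI replicate 1 (log2 0.30), KO MI replicate 1 (0.67) or 2 (0.51). It was lost too without KO GV replicate 1 or 2, or KO MII replicate 1 or 2 (0.59 in each). A pseudocount of 0.1 (limma adjusted p = 0.0595), no filter (0.0792) and the compared groups alone (0.133) also lost it. Relative to the median of all genes the difference was -0.44, and it turned negative with 3 scalings, as low as -0.43 with median scaling (adjusted p = 0.28). At MII it was -0.36 as deposited (adjusted p = 0.211) and -1.13 with median scaling (adjusted p = 0.00231).

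Map2k2, the gene of MEK2, went the other way in WT. It lies on the plus strand of chromosome 10 (80568691 to 80587442). The GV libraries held 58.3 and 52.1 FPKM in WT and 66.6 and 71.2 in KO. At MI the values were 23.6 and 28.9 in WT against 57.3 and 69.1 in KO, and at MII 17.7 and 19.4 against 39.2 and 40.1. Every KO library was above every WT library of its stage, and KO MI overlapped KO GV.

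The fall of Map2k2 from GV to MI in WT was 2.07-fold (log2 -1.05, SE 0.277, limma adjusted p = 0.0207). It was lost without WT GV replicate 1 (adjusted p = 0.108) or 2 (0.0692) or WT MI replicate 1 (0.0813). It was -0.18 relative to the median and was lost with each of the 3 scalings, at -0.78 with equal totals (adjusted p = 0.0701), -0.24 with median scaling (0.633) and -0.22 with quantile normalization (0.658). The fit of those groups alone lost it too (0.0609). The summed cumulus and granulosa markers were lower in WT MI than in WT GV as well. Inha had the highest GV values among them (201 and 239 FPKM against 22.7 and 37.6 at MI). Amh, Amhr2 and Inhba were lower in both WT MI libraries too. Ptx3, Tnfaip6 and Ptgs2 went the other way, from 0 in both WT GV libraries (Ptx3 to 32.1 and 40.2 FPKM). Summed without Inha, the WT GV libraries held 75.8 and 65.5 FPKM, below the 85.9 and 93.1 of the WT MI libraries. The part of such cells in the fall was not tested. In KO the step was -0.13 (95% interval -0.74 to 0.49, adjusted p = 0.874). The difference between the genotypes' steps was 0.92 (0.05 to 1.79, adjusted p = 0.138), so it did not pass.

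Map2k2 was higher in KO than in WT, 2.35-fold among MI libraries (log2 1.24, SE 0.277, limma adjusted p = 0.00999) and 2.09-fold among MII libraries (log2 1.06, adjusted p = 0.0161). The MI call was lost without KO MI replicate 2 (log2 1.10), and the MII call without KO MII replicate 1 (1.08) or 2 (1.05). The compared groups alone lost the MII call too (limma adjusted p = 0.0673). Relative to the median of all genes the differences were 0.21 at MI and 0.25 at MII. With median scaling they were 0.23 (adjusted p = 0.733) and 0.32 (adjusted p = 0.424), and neither was called, nor was either with equal totals or quantile normalization.

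**Figure D3:**
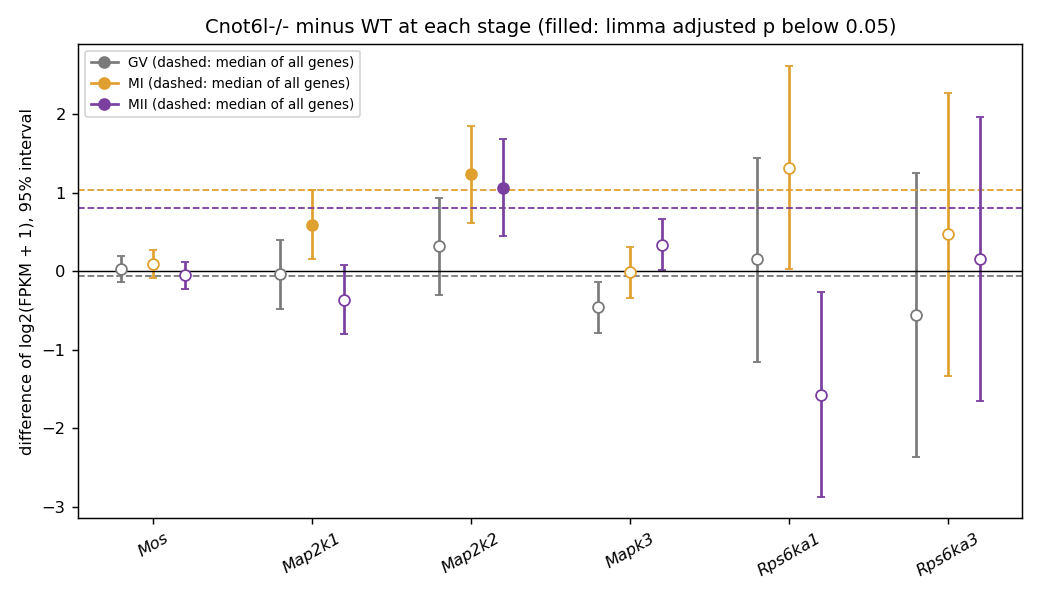
Difference of log2(FPKM + 1) between Cnot6l-/- and WT at GV (grey), MI (orange) and MII (purple) for 6 of the 7 genes, with 95% intervals. Filled dots are called by limma, and dashed lines mark the median of all tested genes at each stage, at -0.06, 1.03 and 0.81. Mos and Mapk3 lie near 0 at MI, below the MI line, while Map2k2 lies above it.

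The share of a gene within its pair does not change with the scale of a library. Map2k1 made up 81.2% and 86.8% of the summed FPKM of Map2k1 and Map2k2 at GV in WT, and 81.0% and 80.2% in KO. At MI its share was 95.3% and 96.2% in WT against 93.7% and 93.2% in KO, and at MII 97.9% and 97.9% against 94.9% and 94.0%. The share was higher at MI and MII than at GV in both genotypes without overlap. At each of the 3 stages both KO libraries were below both WT libraries, at GV by less than the spread between the WT libraries.

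**Figure D4:**
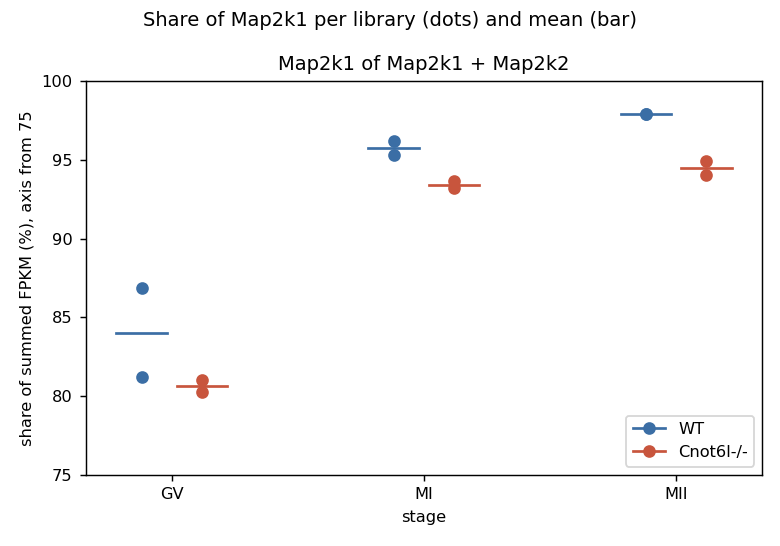
Share of Map2k1 in the summed FPKM of Map2k1 and Map2k2, in percent on an axis that starts at 75, by stage for WT (blue) and Cnot6l-/- (red). Dots are libraries and bars are means of 2. At MI and MII both KO libraries lie below both WT libraries.

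Mapk3, the gene of ERK1, was high at MI and lower on either side. It lies on the plus strand of chromosome 7 (133903139 to 133909330). Before maturation, at GV, it stood at 569 and 657 FPKM in WT and at 417 and 470 in KO. The MI values were 842 and 942 in WT against 873 and 891 in KO, and the MII values 326 and 424 against 443 and 499. The KO GV libraries were below those of WT GV, both KO MI libraries lay within the range of WT MI, and KO MII was above WT MII.

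From GV to MI Mapk3 rose by 0.54 in WT (1.46-fold, SE 0.146, limma adjusted p = 0.0225) and by 0.99 in KO (1.99-fold, adjusted p = 0.00131). The WT rise was lost without WT GV replicate 1 (log2 0.44) or WT MI replicate 2 (0.46), and with the compared groups alone (limma adjusted p = 0.0569). The KO rise was lost with equal totals (0.37, adjusted p = 0.182) and with quantile normalization. The fall from MI to MII was 2.39-fold in WT (log2 -1.26, adjusted p = 0.000172) and 1.87-fold in KO (log2 -0.91, adjusted p = 0.0047). In WT it held in 18 of 19 alternatives, all but the fit of the 2 WT groups alone. In KO it was lost without KO MI replicate 2 (adjusted p = 0.0566) and with each of the 3 scalings (-0.28 and adjusted p = 0.555 with median scaling). Neither step differed between genotypes by the test of the difference (0.45, adjusted p = 0.165, and 0.35, adjusted p = 0.401).

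KO minus WT for Mapk3 was -0.46 at GV (95% interval -0.79 to -0.14, adjusted p = 0.226), -0.01 at MI (-0.34 to 0.31) and 0.34 at MII (0.01 to 0.66, adjusted p = 0.114). The MII difference was called higher without WT MII replicate 2 (adjusted p = 0.0239). With median scaling the sign at MII turned, to a called -0.43 (adjusted p = 0.0431), and at MI Mapk3 was called lower in KO (-1.04, adjusted p = 0.00184). Within its library Mapk3 ranked 174 and 155 in WT MI and 293 and 302 in KO MI, so it stood lower among the genes of KO MI without overlap. At MII the ranks overlapped, at 441 and 335 in WT and 411 and 357 in KO.

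The 3 ribosomal S6 kinase genes were low in every library. Rps6ka1 (RSK1, minus strand of chromosome 4, 133403205 to 133443714) stood at 9.31 and 9.61 FPKM at GV in WT and at 11.9 and 9.38 in KO. Its MI values were 1.71 and 4.09 in WT against 11.3 and 6.01 in KO, and its MII values 8.75 and 4.40 against 1.09 and 1.86. KO was above WT at MI and below it at MII without overlap, but neither difference passed as deposited (1.32, limma adjusted p = 0.11, and -1.57, adjusted p = 0.0688). The MII difference was called with each of the 3 scalings. It was -1.88 with equal totals (limma adjusted p = 0.0364), -2.26 with median scaling (0.0222) and -2.65 with quantile normalization (0.0107). Within KO the step from MI to MII was -1.93 (adjusted p = 0.0763), called only without WT MII replicate 2 (0.0499). Without that library the genotypes' MI to MII steps also differed (-2.89 and adjusted p = 0.0677 with all libraries, adjusted p = 0.0447 without it).

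Rps6ka3 (RSK2, plus strand of chromosome X, 155694051 to 155801417) stood at 8.38 and 10.98 FPKM at GV in WT and at 5.09 and 7.53 in KO. Its MI values were 2.05 and 12.5 in WT against 9.95 and 6.17 in KO. At MII 1 WT library held 2.21 and the other was listed at 0, against 1.56 and 0.55 in KO. In both genotypes both MII libraries were below both GV libraries. The MI to MII step was -1.84 in WT (adjusted p = 0.141, called without WT MI replicate 1 at 0.04) and -2.15 in KO (adjusted p = 0.155). Between genotypes its 95% intervals spanned -2.36 to 1.25 at GV, -1.34 to 2.27 at MI and -1.65 to 1.96 at MII, wide enough to hold changes of several fold in either direction.

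Rps6ka2 (RSK3, plus strand of chromosome 17, 7374463 to 7507664) was listed at 0 in 7 of 12 libraries and reached at most 2.24 FPKM, in a KO MI library. Where groups lie this low, a listed 0 does not show that the transcript was absent. The sum of the 3 genes at GV was 18.7 and 20.6 FPKM in WT and 17.0 and 18.3 in KO. The MI sums were 3.76 and 16.9 in WT against 22.0 and 14.4 in KO, and the MII sums 8.75 and 6.61 against 2.65 and 2.41. At MII the KO libraries were below the WT libraries.

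The order of levels was the same in both genotypes at GV for the upper 3 genes, with Mos above Mapk3 and Mapk3 above Map2k1, each pair of neighbours apart in its libraries. At MII Map2k1 was above Mapk3 in both genotypes. At MI the order of these 2 genes was Mapk3 above Map2k1 in WT, while their libraries overlapped in KO. Rps6ka1 and Rps6ka3 overlapped each other in WT GV, WT MI, KO MI and KO MII.

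The 3' ends of the annotated transcripts are shown for Mos and Map2k1, which rose from GV to MI in both genotypes, and for Rps6ka2, the one gene with both motifs in the window below. Mapk3, which rose in both genotypes too, held neither motif there, so none is shown. Stored oocyte mRNAs are known to be polyadenylated through a hexamer (AATAAA or ATTAAA) and a nearby cytoplasmic polyadenylation element (CPE, searched here as TTTTAT or TTTTAAT, sense strand only). Each line gives 30 bases, with those motifs in capitals, from the mouse genome of the same build.
Mos, chr4:3797808-3797837, minus strand: atatttttaggaAATAAAgttaccacgaac
Map2k1, chr9:64033580-64033609, minus strand: ctatcaagttaaAATAAAagggacaagaga
Rps6ka2, chr17:7507632-7507661, plus strand: tttttgAATAAAcatggaTTTTATgaagtg
The Mos 3' UTR is annotated at 126 bases, against a median of 828 over 10943 tested genes with a matched transcript. Its hexamer starts 22 bases from the end. The annotated Map2k1 end lies 22 bases beyond the end in the deposited table. Its marked hexamer starts 21 bases from the annotated end, so it lies outside the deposited gene. Another AATAAA, not shown, starts 43 bases from the annotated end, inside the deposited gene. In the last 100 bases of the 3' UTR, 5 of the 7 genes held a hexamer, against 80.2% of those tested genes. One of these is Rps6ka3, whose matched transcript ends 552 bases from the end in the deposited table, so its window may not be that of the measured transcript. The CPE letters stood there in 1 of 7, Rps6ka2, against 19.5%. In Rps6ka2 they start 13 bases from the end, after the hexamer, which starts at 25. Anywhere in the 3' UTR the CPE letters stood in 3 of 7 (Map2k1, Rps6ka2 and Rps6ka3), against 56.5%. Neither Map2k2 nor Mapk3 held either motif in that window. A match describes the annotated letters, and its absence says only that they are not in this window of this transcript model.

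Over the 12 libraries and the 6818 other genes with a mean of at least 10 FPKM, 5 genes followed Mos most closely (Pearson's r of log2 values, a description with no test). They were 3110001I22Rik (r = 0.993), Magoh, of the exon junction complex (0.990), 2700029M09Rik (0.988), Mad2l1, a spindle checkpoint protein (0.987), and Ccndbp1 (0.987). Mad2l1, for instance, was 309 and 306 FPKM at GV in WT and 285 and 292 in KO. Its MI values were 893 and 724 in WT against 889 and 894 in KO, and its MII values 731 and 674 against 725 and 736. Among the 7 genes, Map2k1 was the most like Mos (0.927), Mapk3 was weakly so (0.275), and Map2k2 (-0.56) and Rps6ka1 (-0.54) ran against it. The 12 libraries behind each r share their 3 stages and their scale.

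Around these 7 genes, 80 other genes of the pathway were listed in 6 groups, from Ras to phosphatases and substrates. Of them 78 were in the table and 60 were tested. Between genotypes 0 rose and 1 fell at GV, 17 rose and 0 fell at MI, and 15 rose and 3 fell in KO at MII, with medians of 0.04, 0.83 and 0.60 against -0.06, 1.03 and 0.81 over all genes. Over all tested genes 27.9% were called higher at MI and 25.4% at MII, so the 17 and 15 of 60 were near the background. In either direction 1.56% of all genes were called at GV, 28.4% at MI and 28.6% at MII. With median scaling the counts were 0 higher and 4 lower at MI, where 4.73% of all genes were called (2.85% lower). At MII they were 7 higher and 8 lower, where 24.8% of all genes were called (10.5% lower), so they too were near the background. The direction of these counts thus rests on the scale. The WT step from GV to MI had 2 called higher and 11 lower, where 3.06% and 21.7% of all genes were, and with median scaling 6 and 5. In KO that step had 8 higher and 2 lower, where 10.2% of all genes were called (8.89% higher), and with median scaling 1 and 3. Between MI and MII the counts in WT were 5 higher and 12 lower, where 22.1% of all genes were called (16.4% lower). With median scaling they were 10 and 10. In KO they were 0 and 3, where 7.35% of all genes were called (7.18% lower), and with median scaling 0 and 0. For these stage steps the shares of all genes with median scaling are not given here, so those counts are not read further.

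Among genes that act upstream of MEK, Nras, a Ras GTPase, was 18.2 and 23.1 FPKM in WT MI against 68.5 and 67.0 in KO MI (log2 1.68, limma adjusted p = 0.00528, 0.65 relative), and it was not called with median scaling (adjusted p = 0.302). Pebp1, an inhibitor of the route from Ras to MEK, fell from 1259 and 1050 FPKM in WT MI to 583 and 462 in WT MII (log2 -1.15, adjusted p = 0.000244). That fall was called in every alternative except the compared groups alone (limma adjusted p = 0.0877), with log2 changes of -1.31 to -0.77.

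Among inhibitors of the pathway, Spry1, an antagonist of Ras signalling, fell from 78.3 and 90.1 FPKM in WT GV to 10.3 and 13.1 in WT MI (log2 -2.75, limma adjusted p = 0.000508). It was called in all alternatives. Dusp2, a nuclear ERK phosphatase, was listed at 0 in both WT MII libraries against 8.88 and 9.84 FPKM in WT MI and 11.5 and 7.17 in KO MII. The genes in this paragraph and the one before were picked from those the naming rule gave, after their values were seen.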

How the data were processed

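Polysome-bound RNA was measured in 12 libraries of 6 groups. The authors deposited FPKM per gene in 1 table of all libraries and 1 per library, which hold the same values. The submitters' processing notes name Cufflinks 2.2.1, Bowtie2 2.1.0, TopHat2 2.0.11, CASAVA 1.8 and build mm9, without their roles. The sources used here do not give the annotation, read filters or read numbers, so depth in reads is unknown. An FPKM can shift with library totals and with reads shared by near-identical genes. limma 3.58.1 in R 4.3.3 fitted log2(FPKM + 1) of the 11667 genes with a mean of at least 1 FPKM, with 6 group means, residual df 6 and a trended prior (prior df 4.27). Tests were two-sided, with Benjamini-Hochberg adjustment over all genes tested, and the script was tested on simulated data. Hexamers and CPE letters were read from GENCODE mouse release transcripts of the same build, matched for 93.8% of tested genes. The alternatives were another pseudocount, no filter, 3 scalings, a replicate block, the compared groups alone and leaving out each library. All 7 members were named. Of the pathway lists, up to 3 called genes per list and comparison with the largest change could be named. The text gives some of them, and some are not reported here. The members and lists were chosen with earlier results of these data known.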

Additional observations from a re-analysis of the deposited data

How the results depend on the processing

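Scale was the main limit. KO minus WT at MI turned to -0.55 for Mos and -0.05 for Map2k1 with equal totals, to -0.93 and -0.43 with median scaling, and to -0.11 for Map2k1 with quantile normalization. Mapk3 at MII turned to -0.43 with median scaling. The Mos step from MI to MII turned to 0.32 (median scaling) and 0.30 (quantile) in WT and to 0.43 (median scaling) in KO. The difference of its GV to MI steps turned to -0.83 (equal totals), -1.06 (median scaling) and -0.62 (quantile). Counted over the 54 gene comparisons under every alternative, 55 further sign changes occurred where neither value was called. The same comparison can count under several alternatives. Genes called between genotypes at MI went from 2 to 1 with a pseudocount of 0.1, no filter or the compared groups alone, which left Map2k2, higher in KO. Quantile normalization left 1 as well, but this was Mapk3, lower in KO (-0.68, adjusted p = 0.0286). With equal totals or median scaling the count stayed at 2, but these were Mos and Mapk3, both lower in KO. At MII they went from 1 to 3 with equal totals, 4 with median scaling, 2 with quantile normalization and 0 with the compared groups alone. All those called at MII with a scaling were lower in KO, and Map2k2 was not among them. Shares of all genes called with equal totals or quantile normalization are not given here. From GV to MI in WT 4 became 1 with the compared groups alone and 3 with each of the 3 scalings, and in KO 3 became 2 with equal totals or quantile normalization. From MI to MII in WT 1 became 2, 3 and 2 with equal totals, median and quantile scaling and 0 with the compared groups alone. In KO it became 0 with equal totals or quantile normalization. With median scaling the KO count stayed at 1, but the gene was Mos, higher, in place of Mapk3, lower. For the difference of GV to MI steps 0 became 1 under each of the 3 scalings. Leaving out 1 library gave 0 to 2 called at MI and at MII between genotypes, 1 to 4 from GV to MI in WT, 1 to 2 from MI to MII in WT, 0 to 2 in KO, and 0 to 1 for either difference of steps. Apart from the scalings, the cause of these changes was not tested. The depth is unknown, and genes under a few FPKM, such as the Rps6ka genes, are limited by the spread of 2 libraries.

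Replicate numbers did not pair the libraries: deviations of same-numbered libraries correlated at -0.029 to 0.055 over 15 pairs of groups, 0 of them above 0.1. With a replicate block, genes called between genotypes at MII went from 1 to 2, with Mapk3 added (adjusted p = 0.0466), and the other counts of called genes stayed the same.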
